A study of Mus musculus with 32 samples.

Results

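At 2 h of lipopolysaccharide (LPS), the transcriptome of immunoproteasome-deficient dendritic cells was compared with that of wild-type cells, using 8 of the 32 libraries of the series and 9573 of its 22216 gene entries. The libraries were those labelled dKO 2 h (4) and WT 2 h (4), and a gene was kept where it had at least 1 RPKM (a read density scaled by gene length and by the size of the library) in at least 4 of the 8. Both groups were bone marrow-derived dendritic cells of strain C57BL/6, grown with GM-CSF, exposed to LPS at 1 µg/mL and harvested on day 9. The WT cells were labelled Wild Type and the dKO cells Lmp7-/-Mecl1-/-, a double knockout of the genes for LMP7 and MECL1, with no conditional promoter named. The age and number of the mice, and whether replicates came from separate animals or cultures, are not given in the sources used here, so the spread that the p-values rest on is that of the libraries, and may be technical. GM-CSF cultures of bone marrow are mixed: beside dendritic cells they hold macrophage-like cells and maturing granulocytes. The 8 libraries carried 1.32 to 1.69 Gb of sequence aligned to genes, and 9242 to 10481 genes reached 1 RPKM. The spike-in controls of the ERCC set took 0.203% to 0.274% of the aligned sequence in WT and 0.10% to 0.12% in dKO, and were left out of the scaling.

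The proteasome is the protease complex that breaks down ubiquitin-tagged proteins, and its cutting sites sit on beta subunits. Cells of the immune system exchange the constitutive subunits for LMP2, LMP7 and MECL1, encoded by Psmb9, Psmb8 and Psmb10, which form the immunoproteasome and alter the peptides offered to MHC class I. LPS binds Toll-like receptor 4 on dendritic cells and sets off, within hours, waves of immediate early genes, cytokines and chemokines, then type I interferon and the genes it induces, while the cells raise costimulatory molecules and turn towards glycolysis.

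A pair of the dKO libraries did not look like cells at 2 h. Each library was correlated across genes with the WT mean at 0, 1, 2 and 6 h, leaving a library out of its own mean. The 4 WT libraries and dKO replicates 1 and 3 lay nearest to WT at 2 h, with Pearson r of 0.970 and 0.976 for those 2 dKO libraries. For the library labelled dKO 2 h replicate 2 the highest correlation was with WT at 0 h (r = 0.967, against 0.779 with 2 h), and for the library labelled dKO 2 h replicate 4 it was with WT at 6 h (r = 0.961, against 0.906 with 2 h). Il6, an inflammatory cytokine, had 1498, 1570, 1308 and 1396 RPKM in WT replicates 1 to 4 and 1641, 1.67, 1572 and 1154 RPKM in dKO replicates 1 to 4. Ifnb1, the interferon-beta gene, had 772, 872, 719.5 and 633 RPKM in WT and 912, 0.168, 935 and 32.3 RPKM in dKO. Replicate 2 was near the resting level for both genes, where WT at 0 h averaged 1.70 RPKM of Il6 and 0.336 of Ifnb1, and replicate 4 had kept Il6 but little Ifnb1, whose WT mean at 6 h was 16.9 RPKM. Every comparison was therefore made both ways: as labelled, 4 dKO against 4 WT libraries (the full comparison), and without dKO replicates 2 and 4 (the reduced comparison, 2 against 4). Unless stated otherwise, values are listed in the order of replicates 1 to 4, a log2 change is on the log2(RPKM + 0.5) scale with its standard error, and the adjusted p is limma's with Benjamini-Hochberg adjustment over all 9573 genes.

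**Figure D1:**
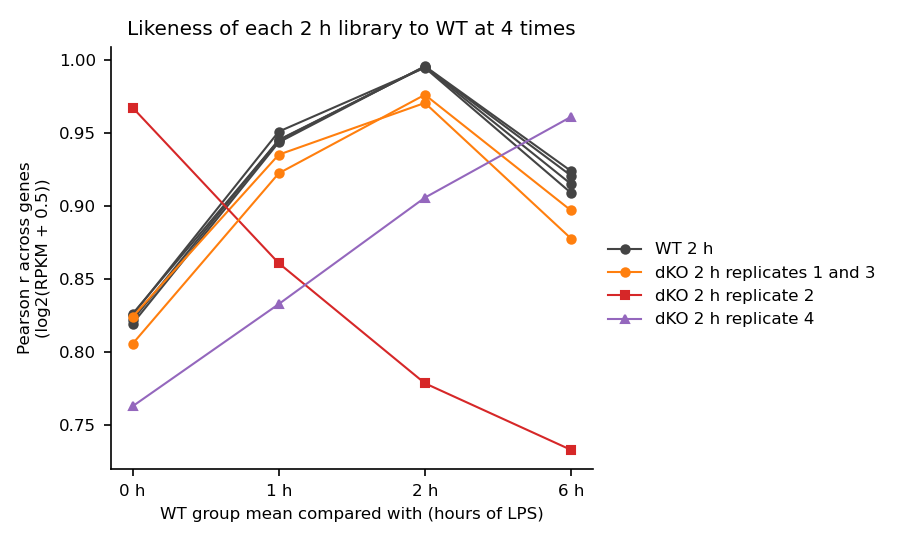
Pearson correlation across genes (y axis) of each of the 8 libraries at 2 h with the WT mean at 0, 1, 2 and 6 h of LPS (x axis); each line is 1 library. The WT libraries and dKO replicates 1 and 3 peak at 2 h, while the library labelled dKO 2 h replicate 2 peaks at 0 h (0.967) and replicate 4 at 6 h (0.961).

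In the full comparison 186 genes differed at an adjusted p under 0.05, which is 1.94% of the genes tested; 47 were higher and 139 lower in dKO. All 186 also differed, in the same direction, in the reduced comparison, and in all 186 the 4 dKO values lay wholly to one side of the 4 WT values, a separation that 14% of all tested genes showed. The libraries of the reduced comparison are part of the full one, so passing in both is a description and not independent support. At least a 2-fold change on the log2 scale was seen for 38 of the higher and 116 of the lower genes. The reduced comparison called 2644 genes (27.6% of those tested), 769 higher (8.03%) and 1875 lower (19.6%). Its split leaned less to one side under other scalings, with 1171 higher and 1288 lower after median-of-ratios scaling and 1201 and 1241 after quantile normalization. Of the 2458 genes called only there, 311 had the opposite sign in the full comparison. Over all genes the log2 change had a median of 0.06 in the full and -0.09 in the reduced comparison, and the latter was 0.02 after quantile normalization.

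**Figure D2:**
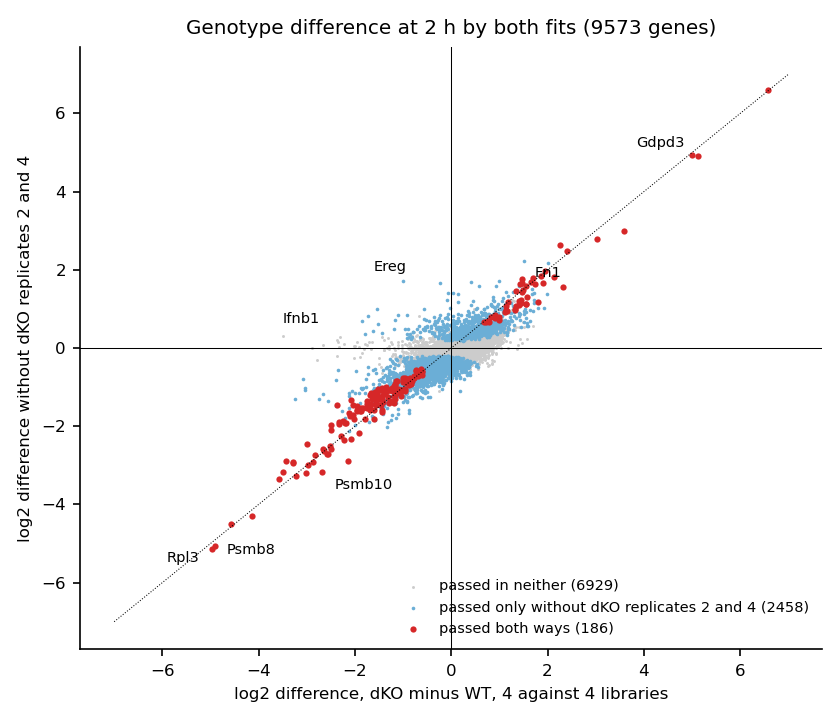
Log2 change, dKO minus WT, of each tested gene in the full comparison (x axis) and the reduced comparison (y axis); red points passed in both, blue points only in the reduced one, grey points in neither. The 186 red genes lie close to the dotted line of equal change, whereas LPS-induced genes such as Ifnb1 and Ereg lie to its left.

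The targeted genes had fallen in all 4 dKO libraries. Psmb8 (chromosome 17, 34335140 to 34338399, mm9) had 172, 171, 172 and 182 RPKM in WT and 4.86, 4.66, 4.61 and 7.42 RPKM in dKO. The WT libraries were nearly alike, and every dKO library, the 2 doubted ones included, was far below them. The dKO mean was 3.09% of the WT mean (5.39 ± 1.36 against 174 ± 5.33 RPKM, SD, n = 4), a log2 change of -4.92 ± 0.17 (adjusted p = 2.68e-06). Psmb10 (chromosome 8, 108459628 to 108462292) had 48.5, 50.2, 51.5 and 52.3 RPKM in WT and 5.01, 8.13, 5.36 and 13.8 in dKO, with replicate 4 the highest of the dKO libraries. Its log2 change was -2.68 ± 0.29 (adjusted p = 0.00199) in the full and -3.17 ± 0.07 in the reduced comparison. An exact two-sided permutation test of the 4 dKO against the 4 WT libraries (70 arrangements) gave p = 0.0286 for each gene, the smallest it can give.

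Among the other catalytic subunits, Psmb5 (chromosome 14, 55232957 to 55236832), the constitutive subunit that LMP7 replaces, was lower in dKO. It had 34.2, 40.6, 36.2 and 41.7 RPKM in WT and 19.4, 23.9, 16.7 and 18.1 in dKO, so that the highest dKO library stayed below the lowest WT library. Its log2 change was -0.96 ± 0.16 (adjusted p = 0.0181) in the full and -1.06 ± 0.10 in the reduced comparison. The full call was lost on leaving out any 1 WT library (limma, adjusted p = 0.0692 to 0.103) or dKO replicate 1 (0.0643), and with a replicate block (0.0894). In those fits the log2 change was -1.01 to -0.91. Psmb9, the remaining immunoproteasome subunit, had 139, 137, 134 and 136 RPKM in WT and 93, 77.3, 106 and 269 in dKO. Replicate 4 alone was above WT, and the gene passed only in the reduced comparison (-0.46 ± 0.07, adjusted p = 0.00154; full -0.19 ± 0.34, adjusted p = 0.844). Psmb6 and Psmb7, the constitutive counterparts of LMP2 and MECL1, passed in neither, with reduced log2 changes of -0.06 ± 0.07 and -0.14 ± 0.08. Of the 41 other proteasome genes tested none passed in the full comparison (limma; 1 had an unadjusted p under 0.05); 8 were lower and none higher in the reduced one, a share close to the 19.6% of all genes that were lower there. Pomp, the assembly chaperone of the core particle, was 1 of the 8 (-0.60 ± 0.12, adjusted p = 0.00661), and after median-of-ratios scaling that count was 5.

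**Figure D3:**
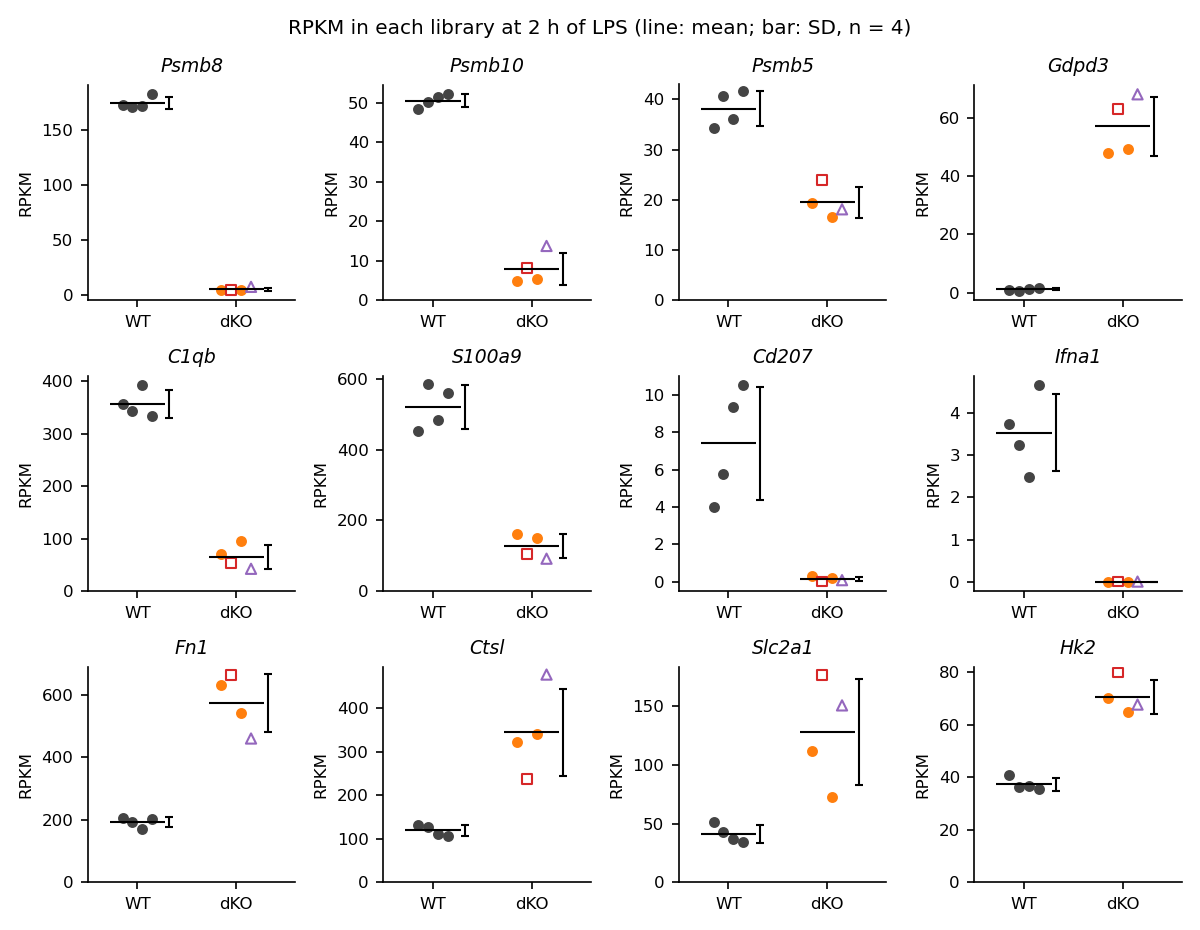
RPKM (y axes, linear) of 12 genes in each library at 2 h, WT in grey and dKO in colour; filled orange circles are dKO replicates 1 and 3, the open square replicate 2 and the open triangle replicate 4, with the mean as a line and the SD of 4 libraries as a bar. In all 12 genes the dKO points, open ones included, lie to one side of the WT points; Ifna1 is listed at 0 in all 4 dKO libraries.

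The lowest genes by fold beside Psmb8 were Rpl3 and Rpl29, which encode proteins of the large ribosomal subunit. Rpl3 (chromosome 15, 79908211 to 79913836) had 46.1, 50, 46.4 and 41.3 RPKM in WT and 0.685, 2.35, 0.949 and 0.508 in dKO, a log2 change of -4.96 ± 0.31 (adjusted p = 7.57e-05). Rpl29 (chromosome 9, 106331870 to 106333898) had 28.2, 26, 25.8 and 23.4 RPKM in WT and 1.01, 0.91, 0.404 and 0.287 in dKO (-4.57 ± 0.25, adjusted p = 3.19e-05). Both families have many near-identical processed copies in the mouse genome, and how the authors assigned reads that fit several copies is not given in the sources used here, so the levels of these entries are uncertain. Of the 77 cytosolic ribosomal protein genes tested, Rpl3 and Rpl29 alone passed in the full comparison, beside 1.94% of all genes; the list's median log2 change was 0.11, beside 0.06 over all genes. Under median-of-ratios scaling 3 of the 77 were lower. In the reduced comparison 3 were higher and 7 lower, beside 8.03% and 19.6% of all genes. After that scaling 22 were higher and 4 lower, where 1171 and 1288 of all 9573 genes were.

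Tcea3, a transcription elongation factor of the TFIIS family (chromosome 4, 135803872 to 135830814), had 8.02, 11.1, 9.81 and 8.34 RPKM in WT and 0, 0.219, 0 and 0.0229 in dKO. It was listed at 0 in 2 dKO libraries and close to 0 in the others, with a log2 change of -4.14 ± 0.23 (adjusted p = 3.13e-05). Uchl1, a ubiquitin carboxyl-terminal hydrolase (chromosome 5, 67067360 to 67078473), had 7.14, 6.47, 8.68 and 8.57 RPKM in WT and 0.167, 0.432, 0.561 and 0.396 in dKO, and fell by 3.22 on the log2 scale (adjusted p = 0.000162). The dKO level was under 1 RPKM in all 4 libraries. Cldn1, the tight junction protein claudin-1, had 34.9, 35, 36.9 and 38.4 RPKM in WT and 3.69, 3.38, 5.37 and 0.928 in dKO (-3.43 ± 0.38, adjusted p = 0.00265). Gdf15, a stress-induced cytokine of the TGF-beta family (chromosome 8, 73153293 to 73155534), had 33, 43, 36.2 and 34.4 RPKM in WT and 4.38, 2.37, 4.42 and 2.45 in dKO (-3.29 ± 0.23, adjusted p = 0.000162). For both genes the highest dKO library was well below the lowest WT library. Anxa8, an annexin (-3.01 ± 0.23), Vill, a villin-like actin-binding protein (-2.88 ± 0.20), and Cd300e, an activating receptor of myeloid cells (-2.82 ± 0.30), completed the set of lowest genes outside the gene groups described further on, each with every dKO value under every WT value.

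The gene that rose most, apart from loci without an established name, was Gdpd3, which encodes an enzyme of the glycerophosphodiester phosphodiesterase family (chromosome 7, 133909928 to 133919159). It had 1.11, 0.734, 1.25 and 1.48 RPKM in WT and 47.8, 63.1, 49.2 and 68.1 in dKO, a log2 change of 5.13 ± 0.21 (adjusted p = 5.39e-06). All 4 dKO libraries were high in this gene, the 2 doubted ones included. Elavl4, a neuronal RNA-binding protein (chromosome 4, 109876342 to 110024516), was listed at 0 in 3 WT libraries and at 0.0292 RPKM in the other one, and had 2.93, 3.73, 1.87 and 1.02 RPKM in dKO (adjusted p = 0.00705). Fn1, the matrix protein fibronectin (chromosome 1, 71632097 to 71699745), had 205, 195, 171 and 204 RPKM in WT and 632, 664, 541 and 461 in dKO (1.56 ± 0.17, adjusted p = 0.00236). The reduced comparison gave 1.60 ± 0.10.

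Arg1 and Retnla belong, like Fn1, to the list of alternative activation, the state that interleukin-4 gives macrophages. The first, which encodes arginase-1, had 76.2, 49.4, 27.5 and 35.4 RPKM in WT and 218, 265, 114 and 103 in dKO (1.87 ± 0.39, adjusted p = 0.0484), and its WT values already spread more than 2-fold. Retnla, the secreted protein RELM-alpha, had 2.48, 1.2, 0 and 0.343 RPKM in WT and 9.34, 6.31, 6.73 and 18.9 in dKO (3.02 ± 0.57, adjusted p = 0.0317). The calls of Arg1 and Retnla were lost with 0.1 added in place of 0.5 (limma, adjusted p = 0.0533 and 0.0773). Without the expression filter they were lost too (0.0725 and 0.0510), and that of Arg1 also after quantile normalization (0.0541). Of the 18 tested genes of that list 3 were higher (Arg1, Retnla and Fn1) and 1 lower in the full comparison, where all genes gave 0.491% higher and 1.45% lower; the list's median was -0.07. The lower one was Irf4, a transcription factor of dendritic cells and of alternative activation (161, 155, 162 and 151 RPKM in WT and 103, 91.3, 114 and 98.1 in dKO; -0.64 ± 0.13, adjusted p = 0.0429), a call lost under median-of-ratios scaling. In the reduced comparison 6 members were higher and 7 lower, beside 8.03% and 19.6% of all genes.

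Other raised genes were spread over functions. Orm2, an acute phase plasma protein, had 1.7, 2.15, 3.01 and 2.57 RPKM in WT and 16.8, 7.5, 17.1 and 13.1 in dKO (2.26 ± 0.29, adjusted p = 0.0062); it has close paralogs, so its level is uncertain. Aqp3, a water and glycerol channel, had 3.76, 3.24, 3.04 and 2.39 RPKM in WT and 11.9, 23.4, 15.3 and 7.27 in dKO (1.95 ± 0.33, adjusted p = 0.0192). Both genes separated the groups in every library. Cdkn2a, the locus of the cell cycle inhibitors p16 and p19Arf, had 2.08, 1.26, 1.39 and 2.21 RPKM in WT and 7.3, 8.76, 5.58 and 6 in dKO (1.73 ± 0.24, adjusted p = 0.00864). Ppp1r3b, which directs protein phosphatase 1 to glycogen, had 2.35, 1.31, 1.61 and 1.07 RPKM in WT and 6.27, 22.9, 4.88 and 11.9 in dKO, with the 2 doubted libraries highest, and its log2 change was 2.32 ± 0.45 in the full and 1.57 ± 0.22 in the reduced comparison. C1qtnf6, a secreted C1q-like protein (1.91 ± 0.32), Lpar1, a lysophosphatidic acid receptor (1.66 ± 0.25), Ocel1 (1.57 ± 0.25) and the kinase gene Cdk20 (1.56 ± 0.32) also rose without overlap of the groups.

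Complement C1q, which tags immune complexes and dying cells, was lower in all 3 of its chains. C1qb (chromosome 4, 136436061 to 136442092) had 358, 345, 394 and 334 RPKM in WT and 70.8, 54.4, 95.7 and 43.1 in dKO, a log2 change of -2.49 ± 0.24 (adjusted p = 0.00113). C1qc had 220.1, 216, 232 and 184 RPKM in WT and 74.3, 56.6, 112 and 40.7 in dKO (-1.67 ± 0.28, adjusted p = 0.0192). C1qa had 141, 142, 174 and 120.0 RPKM in WT and 57.5, 42.3, 82.6 and 30.6 in dKO (-1.51 ± 0.28, adjusted p = 0.0326). The lowest dKO library for each chain was replicate 4, and the reduced changes were smaller, -2.11 ± 0.12, -1.21 ± 0.15 and -1.05 ± 0.16. The 3 chains were the only macrophage markers of 13 tested that passed in the full comparison, beside 1.45% of all genes; after median-of-ratios scaling C1qa did not pass (adjusted p = 0.0613). In the reduced comparison 4 of the 13 were lower and 6 higher, beside 19.6% and 8.03% of all genes.

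Of the granulocyte markers that passed in the full comparison, all were lower. S100a8 and S100a9 encode calprotectin, the abundant calcium-binding protein of neutrophils and monocytes. S100a9 (chromosome 3, 90496555 to 90499613) had 452, 584, 485 and 559 RPKM in WT and 163, 106, 151 and 92.3 in dKO (-2.05 ± 0.22, adjusted p = 0.00188), and S100a8 had 328, 401, 302 and 334 RPKM in WT and 113, 89.9, 110.2 and 62.6 in dKO (-1.88 ± 0.21, adjusted p = 0.00265). Ltf, lactoferrin of neutrophil granules, fell by 2.03 on the log2 scale (adjusted p = 0.00188). The stefins Stfa2, Stfa3 and Stfa2l1, inhibitors of cysteine proteases encoded in a cluster on chromosome 16, fell by 3.29, 3.01 and 2.21. Stefin genes are near copies of each other, so the share of each is uncertain, though 6 of the 7 stefin entries of the cluster passed. In all, 6 of 13 tested granulocyte markers were lower in the full comparison (10 lower and 1 higher in the reduced one), beside 1.45% of all genes, and the median log2 change of the 13 was -1.47. Stfa2, Stfa3 and Stfa2l1 are among the 6 and, as near copies, may not count as separate members.

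Eosinophil genes followed the same course. Epx, eosinophil peroxidase (chromosome 11, 87677500 to 87689038), had 77.2, 131, 68.3 and 63.6 RPKM in WT and 34.7, 16.2, 26.2 and 22 in dKO (-1.75 ± 0.29, adjusted p = 0.0181). Prg2, the major basic protein of eosinophil granules, had 727, 1108, 654 and 771 RPKM in WT and 407, 177, 320.2 and 237 in dKO (-1.55 ± 0.29, adjusted p = 0.0298). WT replicate 2 was the highest library for both. Prg3 and the ribonuclease genes Ear1 and Ear6, which are members of a multigene family and uncertain in their shares, fell by 1.58, 2.12 and 1.65, which made 5 of 6 tested eosinophil markers lower in both comparisons. After median-of-ratios scaling 1 of the 5 passed in the full comparison and all 5 in the reduced one. Summed over the 17 granulocyte markers in the files, WT libraries held 1151 to 1471 RPKM and dKO libraries 571, 387, 528 and 510 RPKM. Over the 9 eosinophil markers the sums were 904 to 1527 RPKM in WT and 542, 256, 431 and 306 RPKM in dKO. In such bulk samples fewer cells of a type and less RNA per cell cannot be told apart.

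The dendritic cell markers that passed were lower too. Cd207, which encodes langerin, the lectin that marks Langerhans cells (chromosome 6, 83621201 to 83627851), had 4.02, 5.75, 9.33 and 10.5 RPKM in WT and 0.282, 0, 0.179 and 0.0774 in dKO (-3.57 ± 0.32, adjusted p = 0.000888). Epcam, the adhesion molecule that Langerhans cells carry, had 3.78, 4.2, 3.34 and 3.91 RPKM in WT and 0.414, 0.333, 0.0259 and 0.0687 in dKO (-2.64 ± 0.25, adjusted p = 0.00113). Neither gene reached 0.5 RPKM in any dKO library. Cd209a, a lectin of monocyte-derived dendritic cells, had 7.85, 10.3, 10.7 and 7.46 RPKM in WT and 1.96, 1.93, 1.99 and 0.316 in dKO (-2.34 ± 0.38, adjusted p = 0.0178). Batf3, a transcription factor of conventional dendritic cells, had 27.1, 28.3, 27.6 and 25.6 RPKM in WT and 14.9, 15.8, 13.6 and 15.9 in dKO (-0.83 ± 0.13, adjusted p = 0.0159) with values close together within each group. These 4 of 12 tested dendritic cell markers were lower in the full comparison, beside 1.45% of all genes, and 9 of 12 in the reduced one, beside 19.6%. None was higher in either as deposited, and 1 was higher in the reduced comparison after median-of-ratios or quantile scaling. The summed level of the 15 dendritic cell markers was 1199 to 1277 RPKM in WT and 849.8, 761, 1016 and 1233 RPKM in dKO. Itgax, which encodes CD11c, the defining surface protein of the culture, was present in every library (400.2, 389.6, 349 and 377 RPKM in WT and 361, 518, 379 and 193 in dKO) and passed in neither (reduced log2 change -0.03 ± 0.07, adjusted p = 0.778).

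Markers of T, NK, erythroid and stromal cells were scarce, whereas those of B cells and monocytes were not. The summed markers of T cells (6 genes in the files) came to at most 4.63 RPKM in any of the 8 libraries, those of NK cells (6) to at most 5.85, of erythroid cells (5) to at most 0.673 and of stromal cells (6) to at most 2.82. The NK cell genes Gzma, Prf1 and Eomes and the erythroid gene Hba-a1 were listed at 0 throughout. The 6 B cell markers summed to 32.9 to 49.4 RPKM in WT and 26.0, 6.31, 35.7 and 63.5 RPKM in dKO, and the 1 that could be tested was lower in the reduced comparison, though not after median-of-ratios scaling. The 9 monocyte markers summed to 173 to 229.6 RPKM in WT and 147, 257, 131 and 362 RPKM in dKO. Of 8 tested, 1 was lower in the full and 3 in the reduced comparison, beside 1.45% and 19.6% of all genes. The 10 mast cell and basophil markers summed to 9.59 to 14.7 RPKM in WT and 4.89, 3.03, 5.57 and 9.13 RPKM in dKO. The 4 tested were all lower in the reduced comparison, beside 19.6% of all genes (3 after median-of-ratios scaling). In the summed B cell and the summed monocyte markers the library labelled dKO 2 h replicate 4 was the highest of the 8. Single markers could differ, as Ccr2 of monocytes was lowest in that library (2.31 RPKM). Of 6 plasmacytoid dendritic cell markers 2 could be tested, and 1 of them, Pacsin1, was lower in both comparisons, beside 1.45% and 19.6% of all genes. Pacsin1 had 1.26, 1.35, 1.62 and 1.3 RPKM in WT and 0.175, 0.185, 0.31 and 0.491 in dKO (-1.27 ± 0.22, adjusted p = 0.0219). The 6 markers summed to 15.9 to 19.1 RPKM in WT and 13.9, 5.07, 20.4 and 35.0 RPKM in dKO, so that dKO replicates 3 and 4 were above WT. The part of the marker differences in the other results was not tested.

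Ifna1 was the sole gene of LPS-induced type I interferon that passed both ways, and it was listed at 0 in all 4 dKO libraries. Ifna1 (chromosome 4, 88495991 to 88496560) had 3.74, 3.25, 2.48 and 4.66 RPKM in WT (adjusted p = 0.000269). Interferon-alpha genes form a cluster of near-identical single-exon genes on chromosome 4, so a share of reads may be credited to the wrong member. To set the members side by side upstream of where transcription starts, 120-base stretches upstream of 4 of them are given from RefSeq (GRCm38.p6, chromosome 4). They run from 230 to 111 bases before the annotated start for Ifna1 and Ifna5, from 229 to 110 for Ifna2 and from 190 to 71 for Ifna4, and capitals mark the letters GAAA, any 2 bases and GAAA again, an interferon regulatory factor element, searched on both strands. They lie at chr4:88849857-88849976, chr4:88835295-88835414, chr4:88683889-88684008 and chr4:88841626-88841745 in that order.
Ifna1: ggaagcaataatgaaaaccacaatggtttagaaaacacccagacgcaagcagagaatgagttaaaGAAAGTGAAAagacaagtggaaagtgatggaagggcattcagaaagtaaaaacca
Ifna5: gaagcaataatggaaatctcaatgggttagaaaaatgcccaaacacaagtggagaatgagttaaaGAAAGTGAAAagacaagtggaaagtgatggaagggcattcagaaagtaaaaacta
Ifna2: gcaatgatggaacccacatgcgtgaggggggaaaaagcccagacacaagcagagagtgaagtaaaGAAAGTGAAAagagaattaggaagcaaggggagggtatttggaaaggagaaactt
Ifna4: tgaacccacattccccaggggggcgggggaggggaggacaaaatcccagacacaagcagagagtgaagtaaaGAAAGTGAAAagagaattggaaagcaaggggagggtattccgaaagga
All 4 stretches carry the match once, and the bases around it differ between members. It was found within 250 bases before the start in 5 of the 6 tested type I interferon genes and in 2.98% of all 32851 windows of that length, and is a description of letters, not of binding. A gene counted if any of its windows held the match, whereas the 2.98% counts single windows, so these are unlike units.

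The remaining interferon genes did not all move one way. Ifna4 had 34.9, 34.9, 26.1 and 36.5 RPKM in WT and 10.9, 0, 15.8 and 1.15 in dKO, Ifna2 had 7.92, 9.04, 7.25 and 9.44 and 2.92, 0, 4 and 0, and Ifna5 had 5.63, 6.01, 4.9 and 7.59 and 1.01, 0, 3.06 and 0.361. In each of these 3 all dKO libraries were below all WT libraries, yet the full comparison did not pass them (adjusted p = 0.175, 0.128 and 0.0641); the reduced one did, with log2 changes of -1.29 ± 0.16, -1.18 ± 0.14 and -1.48 ± 0.29. Ifna9 was instead higher in dKO replicates 1 and 3 (5.84, 0, 9.55 and 0.191 RPKM in dKO, 3.83, 4.14, 4.75 and 4.9 in WT; reduced 0.71 ± 0.18, adjusted p = 0.016). Ifnb1 did not pass in the reduced comparison (0.31 ± 0.11, adjusted p = 0.0712), with dKO replicates 1 and 3 above all 4 WT libraries; after median-of-ratios scaling it did (0.41 ± 0.12, adjusted p = 0.0376).

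None of 45 interferon-stimulated genes passed in the full comparison (limma), and none had an unadjusted p under 0.05 there, beside 1217 of all genes. Summed over the 45 genes, WT libraries held 9676 to 10395 RPKM and dKO libraries 9759, 554, 11963 and 17347 RPKM. With dKO libraries so far apart the full comparison could hardly detect a difference in these genes, so its lack of calls says little. In the reduced comparison 17 were lower and 4 higher, beside 19.6% and 8.03% of all genes, so that the share that was higher lay near that of all genes. After median-of-ratios scaling the counts were 11 and 5. Ifit3 had 118, 116, 137 and 162 RPKM in WT and 45.2, 0.739, 77.6 and 268 in dKO (reduced -1.15 ± 0.20, adjusted p = 0.00275), whereas Rsad2, the antiviral enzyme viperin, had 1657, 1485, 1504 and 1397 and 2261, 1.55, 2651 and 2434 (reduced 0.70 ± 0.10, adjusted p = 0.00084). In both genes the library labelled dKO 2 h replicate 2 was far below all others.

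Most genes of the LPS response that passed did so in the reduced comparison. Of 27 inflammatory cytokines tested, 6 were higher and 6 lower there, beside 8.03% and 19.6% of all genes, and the share that was lower lay near that of all genes. In the full comparison Vegfa was higher and Gdf15 lower. The 10 characterised genes with the largest changes that passed only in the reduced comparison included Ereg, an epidermal growth factor receptor ligand, Ptx3, a secreted pattern recognition protein, the chemokine gene Cxcl11, the AP-1 subunit gene Jun and Nts, which encodes neurotensin. Ereg had 8.58, 10.7, 12.3 and 12.2 RPKM in WT and 37.9, 0.012, 35.1 and 0.964 in dKO, with a change of 1.71 ± 0.14 in the reduced and -1.0 ± 1.30 in the full comparison. Ptx3 had 472, 454, 431 and 465 RPKM in WT and 1402, 14.7, 1495 and 703 in dKO (1.67 ± 0.07 against -0.24 ± 1.29). For both the sign of the full comparison is opposite, with replicate 2 at the resting level. Cxcl11 (1.69 ± 0.10), Jun (1.71 ± 0.12) and Nts (2.23 ± 0.23) kept one sign. Jun had 32.6, 37.4, 33.8 and 27.9 RPKM in WT and 120.0, 53, 97.1 and 29.6 in dKO.

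Genes that were lower by the same rule included Serpinb9b, a granzyme inhibitor family member (-2.12 ± 0.22), Haus8, a subunit of the augmin complex of the mitotic spindle (-1.96 ± 0.08), H2-T22, a nonclassical MHC class I gene with near-identical neighbours and thus uncertain (-1.90 ± 0.19), and Atp10a, a phospholipid-transporting ATPase (-1.88 ± 0.14). Haus8 had 23.7, 24.2, 24.3 and 25.5 RPKM in WT and 6.33, 15.4, 5.54 and 1.83 in dKO, all 4 below WT. Atp10a had 15.2, 13.9, 15.3 and 15.5 and 2.95, 3.27, 4.63 and 22.1, where replicate 4 was above WT.

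No tested gene of the chemokine, costimulation and maturation, NF-kappaB or immediate early lists passed in the full comparison (limma). In the summed RPKM of each list dKO replicate 2 was the lowest of the 8 libraries, so that lack of calls says little. The counts of these lists below are those of the reduced comparison. Among 20 chemokine genes 6 were higher there, beside 8.03% of all genes, and 4 lower, a share close to the 19.6% of all genes. Cxcl1, a neutrophil attractant, had 269.9, 395, 358 and 265 RPKM in WT and 547, 1.23, 569.6 and 152 in dKO (reduced 0.81 ± 0.15, adjusted p = 0.00427). Ccl12, a monocyte attractant, had 64.2, 61.1, 70.1 and 58.2 and 26.3, 0.0892, 36.9 and 5.72, lower in every dKO library (reduced -1.01 ± 0.13, adjusted p = 0.00052; full adjusted p = 0.276). Costimulation and maturation genes passed in one direction in the reduced comparison, 9 of 17 lower and none higher, beside 19.6% and 8.03% of all genes. Their median log2 change there was -0.51 beside -0.09 over all genes. After median-of-ratios scaling 9 were lower and 1 higher. Cd40 had 202, 181, 257 and 261 RPKM in WT and 83.7, 2.38, 139 and 436 in dKO (reduced -1.04 ± 0.20, adjusted p = 0.00471), Cd70 38.7, 30.7, 46.3 and 34.6 and 13.1, 0.282, 20.9 and 24 (-1.14 ± 0.19), and the adhesion receptor Slamf1 16.8, 15, 16.1 and 12.1 and 3.83, 0.369, 6.81 and 6.34 (-1.45 ± 0.20). Cd40 in replicate 4 was above every WT library, the other 2 genes were below WT in all dKO libraries. Of 29 NF-kappaB factors and feedback genes 12 were lower and none higher, beside 19.6% and 8.03% of all genes (6 lower after median-of-ratios scaling, where 1288 of all 9573 genes were lower), led by the adaptor Traf1 (-0.81 ± 0.10). Of 28 immediate early and AP-1 genes 7 were higher and 6 lower, the latter a share close to the 19.6% of all genes and including Dusp2, a phosphatase of MAP kinases (34.7, 35.5, 43 and 44.3 RPKM in WT, 11.7, 0.0616, 20.9 and 7.88 in dKO; reduced -1.30 ± 0.20).

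Most of the glycolysis and hypoxia genes that passed were higher. Slc2a1, the glucose transporter GLUT1 (chromosome 4, 118781350 to 118809934), had 51.5, 42.7, 37 and 34.2 RPKM in WT and 111, 176, 72.7 and 150.3 in dKO (1.56 ± 0.27, adjusted p = 0.0239). Hk2, the inducible hexokinase that takes the first step of glycolysis (chromosome 6, 82675021 to 82724448), had 41, 36.2, 36.6 and 35.4 RPKM in WT and 70.2, 79.8, 64.8 and 67.6 in dKO (0.91 ± 0.13, adjusted p = 0.0102). Egln1, the oxygen-sensing prolyl hydroxylase PHD2, had 14.5, 12.5, 11.7 and 10.3 RPKM in WT and 28.1, 52.3, 20.8 and 31.8 in dKO (1.33 ± 0.27, adjusted p = 0.0397). All 3 were higher in every dKO library, and the hypoxia-induced growth factor gene Vegfa likewise, with 20.2, 18.3, 18.2 and 13.9 RPKM in WT and 46.8, 99.4, 35 and 91.4 in dKO (1.8 ± 0.33, adjusted p = 0.0285). Ndrg1, another hypoxia-responsive gene, went the other way (158, 159.5, 161 and 145 RPKM in WT and 94.9, 91.4, 109 and 105 in dKO; -0.64 ± 0.13, adjusted p = 0.0397), a call that median-of-ratios scaling did not keep. Of the 28 genes tested, 3 were higher and 1 lower in the full comparison, 10 higher and 2 lower in the reduced one, beside 8.03% higher and 19.6% lower among all genes.

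The 100 bases before the annotated start of Slc2a1, Hk2 and Egln1 (RefSeq, GRCm38.p6) are given because these 3 passed both ways and the hypoxia response core ACGTG lies in each; capitals mark it, on either strand. They are at chr4:119108645-119108744, chr6:82774455-82774554 and chr8:124949255-124949354.
Slc2a1: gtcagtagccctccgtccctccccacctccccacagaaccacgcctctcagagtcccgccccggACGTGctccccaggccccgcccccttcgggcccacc
Hk2: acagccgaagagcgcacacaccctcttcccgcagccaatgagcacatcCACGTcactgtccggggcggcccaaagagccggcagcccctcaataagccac
Egln1: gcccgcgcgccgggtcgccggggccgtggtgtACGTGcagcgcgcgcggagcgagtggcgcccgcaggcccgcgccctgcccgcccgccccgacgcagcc
The core, which CACGTG contains, was present within 250 bases before the start in 16 of 24 tested genes of the list that had a window and in 16.6% of all windows. Of the genes with a window, it was present in 6 of the 8 that were higher in the reduced comparison and in the 1 that was lower, Pfkfb3. Here too a gene counted if any of its windows matched, unlike the share of single windows.

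The lysosomal genes that passed were also mostly higher. Ctsl, the protease cathepsin L (chromosome 13, 64464522 to 64471614), had 133, 127, 112 and 107 RPKM in WT and 324, 238, 341 and 478 in dKO (1.49 ± 0.21, adjusted p = 0.0103). Gla, the lysosomal alpha-galactosidase (chromosome X, 131122708 to 131135544), had 13.6, 12.6, 11.3 and 11.1 RPKM in WT and 21.9, 26.6, 21 and 29.5 in dKO (0.99 ± 0.16, adjusted p = 0.0189). After median-of-ratios scaling Ctsl did not pass (1.41, adjusted p = 0.0700). Of 30 genes tested these 2 were higher in the full comparison, beside 0.491% of all genes, or 1 higher and 1 lower after that scaling. In the reduced comparison 16 were higher and 3 lower, beside 8.03% and 19.6% of all genes. Ctsk, cathepsin K, was among the 3 (16, 16, 16 and 17.8 RPKM in WT and 4.93, 12.3, 4.52 and 4.17 in dKO; reduced -1.70 ± 0.09, adjusted p = 4.37e-06). The median of the list was 0.29 in the full and 0.28 in the reduced comparison. A stretch from 250 to 151 bases before the start of Gla (chrX:134601156-134601255, RefSeq, GRCm38.p6) is shown for its 2 copies of the E-box CACGTG, in capitals, a sequence that transcription factors of lysosomal genes recognise.
Gla: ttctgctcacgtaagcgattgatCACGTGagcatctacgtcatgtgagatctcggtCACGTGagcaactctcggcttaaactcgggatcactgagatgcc
CACGTG was found within 250 bases before the start in 8 of 22 lysosomal genes with a window and in 6.02% of all windows. Of the genes with a window, it was found in 7 of the 12 that were higher in the reduced comparison, Ctsl included, and not in the 1 that was lower. The gene counts again take any window of a gene, and the 6.02% single windows.

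Of 36 cell cycle genes, 25 were lower and 3 higher in the reduced comparison, beside 19.6% and 8.03% of all genes, with a median log2 change of -0.79. Median-of-ratios scaling gave the same counts and quantile normalization 22 and 3. In the full comparison Cdkn2a alone passed. Birc5, the mitotic protein survivin, had 8.48, 6.12, 4.09 and 6.75 RPKM in WT and 1.78, 8.84, 1.34 and 1.16 in dKO (reduced -1.70 ± 0.23, adjusted p = 0.000759). Plk1, a mitotic kinase, had 2.64, 2.67, 2.15 and 2.25 and 1.47, 3.2, 0.395 and 0.376 (-1.14 ± 0.26), and Top2a, topoisomerase II of dividing cells, had 13.9, 12.8, 10.5 and 13.9 and 7.63, 12.4, 5.98 and 2.16 (-0.86 ± 0.14). For Birc5 and Plk1 the library labelled dKO 2 h replicate 2 was above all WT libraries, and the other 3 dKO libraries were below them.

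Few antigen presentation genes passed in the full comparison. H2-DMb2, a peptide exchange chaperone of MHC class II (chromosome 17, 34282361 to 34288040), had 167, 174, 167 and 167 RPKM in WT and 89.6, 100.1, 107 and 64.7 in dKO (-0.92 ± 0.17, adjusted p = 0.0326) and was the only 1 of 13 class II genes that passed in the full comparison. H2-T10, a nonclassical class I gene with near-identical neighbours and uncertain for that reason, was the only 1 of 17 class I genes, with 8.16, 6.71, 9.27 and 8.58 RPKM in WT and 18, 18.2, 17.1 and 38 in dKO (1.35 ± 0.27, adjusted p = 0.0382); median-of-ratios scaling did not keep it. The reduced comparison called 5 class II genes lower and 1 higher, and 6 class I genes lower (3 after median-of-ratios scaling) and 2 higher, beside 19.6% lower and 8.03% higher among all genes. H2-DMb2 lies within 1 Mb of Psmb8 on mm9, where 2 of 74 tested genes passed both ways; the other was Pram1, an adaptor protein gene of myeloid cells (-1.44 ± 0.25). Within 1 Mb of Psmb10 1 of 37 passed, Nrn1l (-1.55 ± 0.27). These shares stand beside 1.94% of all genes.

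In the remaining lists few genes passed in the full comparison, and their counts in the reduced one stand beside 8.03% higher and 19.6% lower among all genes. None of 31 unfolded protein and heat shock genes did (limma; 7 had an unadjusted p under 0.05); 4 were higher and 6 lower in the reduced one, the latter a share close to the 19.6% of all genes, or 6 and 3 after median-of-ratios scaling, with the inducible heat shock genes Hspa1a (1.76, 2.58, 2.18 and 2.46 RPKM in WT, 8.49, 5.42, 5.3 and 20.2 in dKO; reduced 1.41 ± 0.19) and its near-identical neighbour Hspa1b (1.52 ± 0.17) the highest. Their shares cannot be separated with certainty. None of 21 NRF2 and redox genes passed in full (limma; 5 at an unadjusted p under 0.05), and 8 were higher and 3 lower in reduced form. Cholesterol and fatty acid synthesis had 2 higher and 10 lower of 29 in the reduced comparison. Of 15 solute carriers and transport genes Slc2a1 and Aqp3 passed in the full comparison, and 8 were higher and 1 lower in the reduced one. Arg1 was the sole gene of 16 in the nitric oxide, arginine and prostaglandin list to pass in full, and 4 were higher and 2 lower in the reduced comparison.

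**Figure D4:**
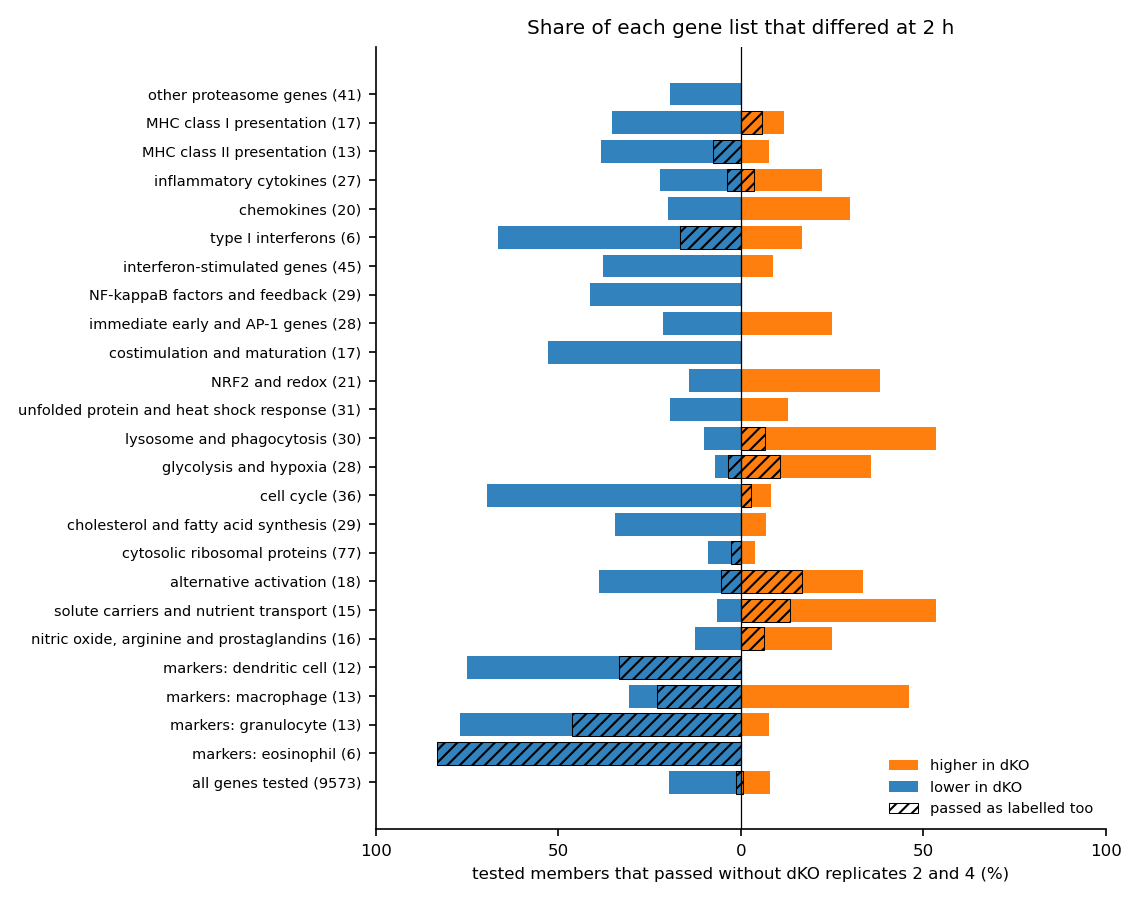
Share of the tested members of each gene list (number in brackets) that were lower (left) or higher (right) in dKO in the reduced comparison, in percent; hatched bars are the share that passed in the full comparison too, and the lowest row is all genes. Cell cycle, costimulation, dendritic cell, granulocyte and eosinophil genes extend to the left, lysosomal genes and transporters to the right.

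The genes that passed both ways at 2 h were compared with the same genes at 0, 1 and 6 h, in other libraries of the series and leaving out at each time the dKO library nearest to another time. Of the 186, 161 were called in the same direction at 0 h, 185 at 1 h and 177 at 6 h; 157 were called at all 3 times (43 higher and 114 lower). Among all genes tested, 29%, 39% and 44.3% were called at those times. Using every library as labelled, the counts were 139, 178 and 157. The 186 had to pass with dKO libraries nearest to 0 h and to 6 h in their group, which favours genes that differ at those times too, so these counts describe the 186 and support nothing further. Whether libraries of different times share mice is not given in the sources used here. Gdpd3, for example, had log2 changes of 3.87, 4.83 and 5.01 at 0, 1 and 6 h, Fn1 1.90, 2.29 and 1.59, C1qb -2.10, -1.93 and -1.95 and Tcea3 -4.50, -4.35 and -3.76.

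**Figure D5:**
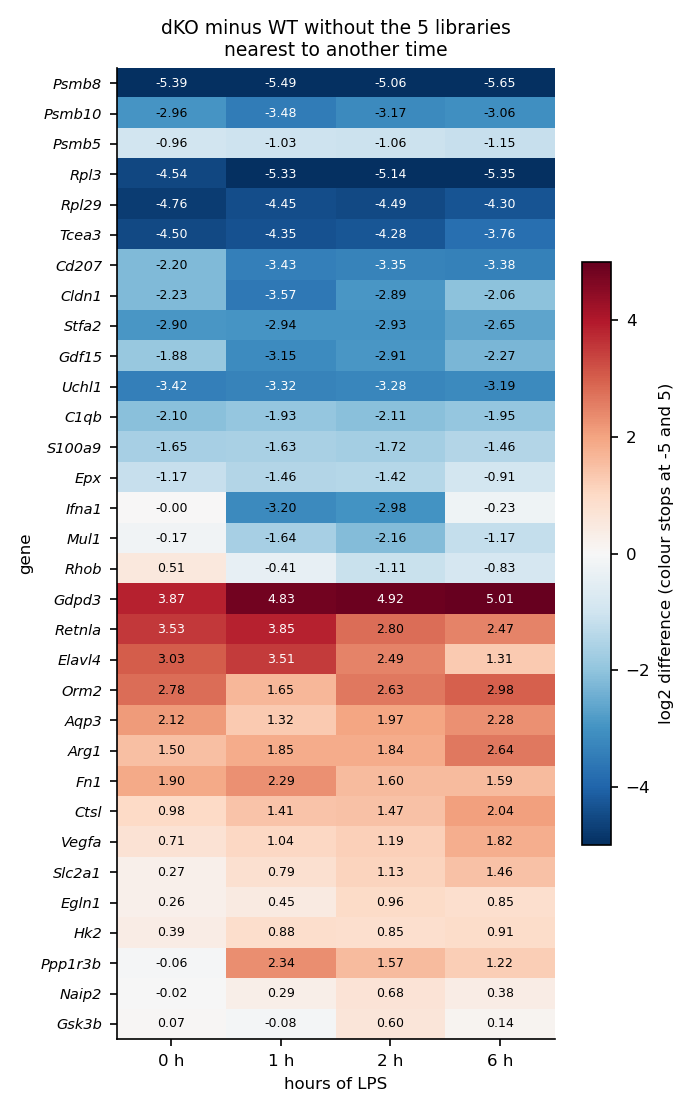
Log2 change, dKO minus WT, of 32 genes (rows) at 0, 1, 2 and 6 h of LPS (columns) without the 5 dKO libraries nearest to another time; red is higher and blue lower in dKO, and numbers are the log2 changes. Psmb8, Tcea3, Uchl1 and Gdpd3 keep their colour across all 4 columns, Ifna1 is blue at 1 and 2 h, and Gsk3b is coloured at 2 h.

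The 2 h difference departed from the mean difference at the other 3 times, tested as a contrast in a fit of all 32 libraries, for 6 genes (0.0627% of those tested). The changes listed at 0, 1 and 6 h leave out the library nearest to another time, so for each gene listed with them the departure without the 5 such libraries is given as well. Ifna1 had a departure of -1.88 ± 0.19 (adjusted p = 2.5e-06) in 32 libraries and -1.84 ± 0.24 without the 5, having log2 changes of 0.00, -3.20 and -0.23 at 0, 1 and 6 h, with WT at 0 RPKM at 0 h and 4.49 at 1 h. Rhob, a small GTPase (chromosome 12, 8504565 to 8506791), had 135, 123, 144 and 167 RPKM in WT and 63.3, 29.6, 67.7 and 44.2 in dKO at 2 h, and departed by -1.42 ± 0.23 (adjusted p = 0.00575) in 32 libraries. Without the 5 the departure was smaller, -0.86 ± 0.13, with changes of 0.51, -0.41 and -0.83 at 0, 1 and 6 h. Mul1, a mitochondrial ubiquitin ligase (chromosome 4, 137990587 to 137998180), had 17.4, 18.6, 17 and 17.5 RPKM in WT and 3.7, 6.94, 3.41 and 3.84 in dKO and departed by -0.86 ± 0.16 (adjusted p = 0.0297) in 32 libraries and by -1.16 ± 0.08 without the 5, with changes of -0.17, -1.64 and -1.17. All 3 were lower at 2 h in both comparisons, Rhob not after median-of-ratios scaling of the full one (adjusted p = 0.0724). Of those that were higher, Naip2, an inflammasome sensor whose close paralogs make its level uncertain, had 16.2, 19.6, 17.7 and 17.7 RPKM in WT and 31.2, 30.2, 26.4 and 30.9 in dKO (departure 0.51 ± 0.09, adjusted p = 0.0297), and its call at 2 h in the full comparison was lost after median-of-ratios scaling (adjusted p = 0.115). The kinase gene Gsk3b departed by 0.65 ± 0.13 (adjusted p = 0.0499) and passed at 2 h in the reduced comparison alone (0.60 ± 0.11). Without the 5 libraries all 6 departures remained, among 224 in total (2.34% of genes tested), and after median-of-ratios scaling of all libraries 3 of the 6 remained among 29, namely Ifna1, Rhob and Mul1.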

How the data were processed

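RNA sequencing libraries were made with the TruSeq RNA kit from 4 µg of total RNA each, per the labels' protocols. CASAVA 1.8.2 and the mm9 genome are named in the submitters' processing notes; the annotation and the handling of multiply mapping reads are not given in the sources used here. The authors deposited 1 table per library with RPKM, scaled by gene length and library total, and a signal in whole numbers, read here from its values as aligned bases and used for depth alone. Depth was 1.32 to 1.69 Gb per library at 2 h. Read counts were not recovered, so no counting interval is given.

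Groups came from the labels. Testing used genes that reached 1 RPKM in 4 or more of the 8 libraries, with limma 3.58.1 (R 4.3.3, intensity trend) on log2(RPKM + 0.5), which understates changes of low genes; 6 residual degrees of freedom remained in the full and 4 in the reduced comparison. P-values are two-sided. A fit of 32 libraries tested the departure of the 2 h difference. Other comparisons in the text use that model at each time. The code was tested on simulated data. The alternatives were other pseudocounts, scalings and filters, a fit of all libraries, array weights, no trend, a replicate block, and leaving out libraries. Members and gene lists were chosen with earlier results of these data known. Genes were named by a rule: the catalytic subunits, the 14 highest and 14 lowest genes that passed both ways without overlap (uncharacterised loci passed over), up to 5 members per list with the smallest adjusted p, up to 5 each way that passed only in the reduced comparison, up to 5 each way with the largest departure, and members or markers that a statement needs. Markers of granulocytes, eosinophils, mast cells, macrophages, monocytes, dendritic cells, plasmacytoid dendritic cells, T, B, NK, erythroid and stromal cells were summed per library. Promoter stretches are RefSeq sequences of GRCm38.p6, matched by symbol and never joined to the mm9 positions. A few genes that the naming rule selected are not reported here.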

Additional observations from a re-analysis of the deposited data

Results flagged for a closer look

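Among the 192 groups of 4 libraries formed by the 96 named genes, 19 held 1 library whose gap to the nearest other, as a share of the group's range, was above Dixon's critical value for 4 samples; chance gives about 1 in 20 groups. In 7 of them the library labelled dKO 2 h replicate 2 stood apart: Tcea3 (0.895), C1qtnf6 (0.841), Ocel1 (0.833), Mul1 (0.877), Rsad2 (0.853), Birc5 (0.919) and Ctsk (0.907). In 5 it was the library labelled dKO 2 h replicate 4: Psmb8 (0.908), Psmb9 (0.851), Cd209a (0.962), H2-T10 (0.949) and Atp10a (0.912). In the other 7 a WT library stood apart: Psmb8 (0.881), Elavl4 (1.000), Prg3 (0.977), H2-DMb2 (0.962), Ifna4 (0.845), Ctsk (0.968) and Pram1 (0.878).

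The genotype difference at 2 h departed from the mean difference at 0, 1 and 6 h by a tested contrast (limma, 32 libraries) for Ifna1 (-1.88), Rhob (-1.42), Mul1 (-0.86), Naip2 (0.51) and Gsk3b (0.65), all on the log2 scale.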

How the results depend on the processing

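The full comparison at 2 h called 186 genes (47 higher, 139 lower), and pseudocounts of 0.1 and 1, a filter at 5 RPKM and no intensity trend kept these counts within 1.5 times. Median-of-ratios scaling called 77 higher and quantile normalization 95; without a filter 209 were lower. A fit of all 32 libraries called 1302 (543 higher, 759 lower), array weights 2348 (670 and 1678), and leaving out dKO replicates 2 and 4 together 2644 (769 and 1875). Array weights gave 2108 genes called in both comparisons. Leaving out 1 library at a time gave 54 to 738 genes, 11 to 176 higher and 42 to 562 lower: 54 to 60 without a WT library, 91 without dKO replicate 1, 738 without dKO replicate 2, 168 without replicate 3 and 280 without replicate 4. Of the 186 genes, 142 were called the same way under median-of-ratios scaling, and 49 under all 19 alternatives that tested them; Psmb8, Psmb10, Rpl3, Gdpd3, Fn1, C1qb, Ifna1 and Cd207 are among the 49. The causes of these shifts were not tested.

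Same-numbered WT and dKO libraries had deviations correlated at 0.038 to 0.10, 1 of 4 pairs above 0.1. For differently numbered pairs the range was -0.24 to 0.18, and 3 of the 8 libraries correlated best with their own number. The pairs included the dKO libraries nearest to another time, so these correlations cannot decide whether equal numbers mark paired libraries. With a replicate block 61 genes were called (12 higher, 49 lower), 60 of them among the 186.

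Without the dKO library nearest to another time, the counts rose from 946 to 2779 at 0 h, from 2050 to 3738 at 1 h and from 1692 to 4244 at 6 h. The departure of 2 h was called for 6 genes, for 224 without the 5 libraries and for 29 with median-of-ratios scaling.

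Of 1806 values of named genes under alternatives 27 changed sign, none of them for a gene that passed in the full comparison. With array weights and without dKO replicates 2 and 4 the log2 changes became 1.58 and 1.67 for Ptx3, 1.55 and 1.71 for Ereg, 0.60 and 0.71 for Ifna9, 0.08 and 0.31 for Ifnb1, 0.05 and 0.16 for Il6, 0.59 and 0.70 for Rsad2, 0.69 and 0.81 for Cxcl1, and -0.05 and -0.06 for Psmb6, which median-of-ratios scaling also turned (-0.05). Leaving out 1 library at a time gave -0.18 to 0.17 for Psmb6, -0.58 to 0.02 for Psmb9, -0.71 to 2.38 for Cxcl11, -0.35 to 0.13 for Itgax and, with the highest value without dKO replicate 2, -0.89 to 1.32 for Ptx3, -1.92 to 0.15 for Ereg, -2.75 to 0.70 for Rsad2 and -2.60 to 0.19 for Cxcl1. Read counts were not recovered, so counting error was not assessed.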
